A study of Rattus norvegicus with 4 samples.

Results

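The genes of the mitogen-activated protein kinase (MAP kinase) cascades were examined in rat OLN93 cells with and without Sox10. Members were taken by symbol, as every Dusp, Spry, Spred, Mapk, Map2k, Map3k and Map4k gene whose symbol is that stem and digits alone, together with Etv1, Etv4, Etv5, Egr1, Fos, Fosl1, Jun and Myc as genes that the cascades are known to induce. The deposited counts list 77 such genes among 17327 gene symbols. Dusp28, Map3k15 and Map3k19 are listed only in the authors' table of mean counts, which brings the number to 80. Of the 77 genes, 19 had enough counts to be tested, 38 had counts but too few for a test, and 20 had no count in any library.

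OLN93 is an immortalized line of rat oligodendroglial cells that arose spontaneously and was grown here in medium with fetal calf serum. The 2 control libraries came from Sox10-positive OLN93 cells. The 2 Sox10-deficient libraries came from the study's clones A and B, in which Sox10 had been inactivated by CRISPR/Cas9 with different guide RNAs. The libraries are called clone A and clone B here in the order of their numbers, a match that was assumed. Each deficient library is thus a single clone, and changes that arose while a clone was isolated cannot be told apart from the loss of Sox10. The labels call the controls biological replicates while the study calls them clones. The p-values compare these 4 libraries, with a spread that is estimated partly across genes, and do not extend to other clones.

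MAP kinase cascades relay signals from growth factor receptors, cytokines and stress to the nucleus through kinases that phosphorylate each other in tiers. MAP4 and MAP3 kinases lie at the top, MAP2 kinases in the middle, and the MAP kinases ERK, JNK and p38 at the bottom. ERK signalling induces its own inhibitors, among them dual-specificity phosphatases, which remove the activating phosphates, and Sprouty and Spred proteins, which act on the receptor and Ras. In the oligodendroglial lineage, ERK signalling is known for its part in precursor proliferation and later in myelin thickness. RNA levels do not report the phosphorylation on which the activity of these kinases depends.

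Library totals of the deposited counts ran from 60951 to 104017. The authors' mean counts sum to 18722563, so that the deposited counts are a small part of those the authors tested. The reason was not tested, and depth below means that of the deposited counts, not of the sequencing. Levels are given as CPM, counts scaled to a common library size, with factors from edgeR's TMM method, and the limit that a count of 0 allows, 3 counts, was 29.1 to 48.0 CPM. The intervals of pooled counts and this limit cover counting error only. Intervals of log2 fold changes come from edgeR's fit, which also estimates the spread between libraries. An SD of 2 libraries is itself imprecise, and differences are not judged by it. Sox10 itself had control counts of 28 and 64, no count for clone A and 14 for clone B (log2 fold change -2.74, SE 0.62, adjusted p = 0.0172 by edgeR). The call was lost with DESeq2 (adjusted p = 0.9998), with the replicate number as a block (0.125), without genes that had too many counts for their mean (0.0504), without control 2 (0.546) and without clone A (0.0689), and the log2 fold change ran from -8.51 without clone B to -1.75 without clone A. Of 11 oligodendroglial markers, 8 had more than 3 counts in a library, whereas Mag was at 0 and Mbp had at most 2 counts in any library. The summed level of these markers was 2656 to 2877 CPM in the controls and 1699 to 1835 CPM in the clones, with Sox10 included. Cnp was lower in the clones (log2 fold change -1.36, adjusted p = 0.0331 by edgeR), while Cspg4 had 278 CPM in the controls and 541 CPM in the clones in the mean (log2 fold change 0.93, unadjusted p = 0.0170 and adjusted p = 0.197 by edgeR) and Pdgfra had 368 and 429 CPM. Olig1 had 12 and 1 counts and Olig2 had 7 and 0 counts in the controls, and both had none in the clones. Of 5 Schwann cell and neural crest markers listed, 4 were in the counts and had more than 3 counts in a library. Their sum was 1151 to 1367 CPM in the controls and 283 to 500 CPM in the clones, with Ngfr at 596 CPM in the mean of the controls and at 0 in both clones, and Tfap2a at 211 and 212 CPM. Neuronal markers reached at most 11.6 CPM in sum and astrocyte markers at most 45.3 CPM. The fibroblast markers, of which Col1a2, Dcn and Lum were at 0, summed to 368 to 397 CPM in the controls and 136 to 325 CPM in the clones. The microglial markers, of which Cx3cr1 and Itgam were at 0, summed to between 45.3 and 136 CPM. Nearly all of this was Csf1r, with control counts of 4 and 13 and clone counts of 5 and 4. The part of these differences in the results below was not tested.

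For genes with an authors' mean count of at least 500, the deposited count per library was 0.384% of that mean in the median. Over all genes, 579 with at least 10 counts lay 10 times or more above this relation, among them the microglial marker Csf1r. Map3k12 had 49.0 times the median ratio, Mapk11 had 41.4 times and Mapk8 had 10.1 times, the only members with at least 10 counts that were 10 times or more above it. Among the genes with a mean of at least 500, which leaves out Mapk11 at 33 and Mapk8 at 347, 43 reached 10 times the median ratio. Where the strand was known in RefSeq's annotation of GRCr8 (the counts were made on rn5), 91.9% of 37 of these had a gene on the opposite strand within 1000 bases, against 46.8% of 4241 other genes. A neighbour on the same strand was found for 13.5% and 12.3%. The libraries were made with a stranded kit, and the strand option of the counting is not given in the sources used here. Whether the deposited counts as a whole were made on the strand opposite to the transcripts was not tested, and this doubt applies to every count given here. Map3k12 adjoins Pcbp2 and Tarbp2 on the opposite strand and Mapk11 adjoins LOC108351526, and whether their counts hold reads of these neighbours was not tested. Mapk8 had no opposite gene within this distance. Of the other tested members, Dusp18, Fosl1, Map2k1, Map3k4, Map4k3 and Mapk6 had one, as had several untested members and Shc1, which is named below. For Jun, Map4k4, Mapk3 and Myc this was not known. Whether the counts of any of these genes hold reads of a neighbour was not tested. Of the 19 tested members, 15 lay within 3-fold of the median ratio, the others being Map3k12, Mapk8, Map3k3 at 4.81 times and Dusp18 at 4.18 times.

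**Figure D1:**
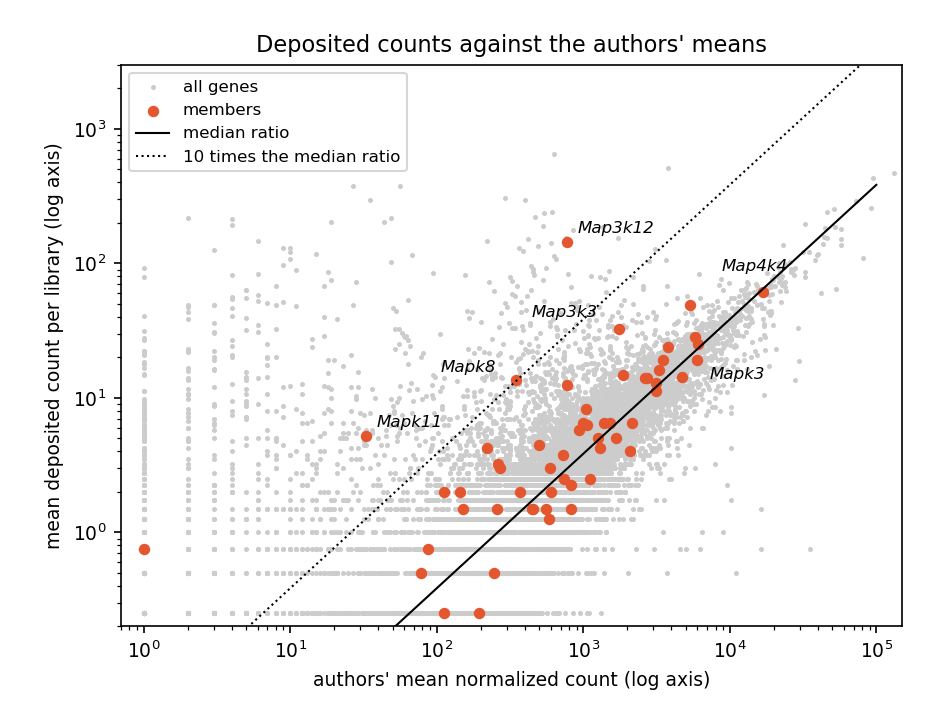
Mean deposited count per library (y, log axis) against the authors' mean normalized count (x, log axis), with all genes in grey and the members in orange, for genes above 0 on both axes. The solid line is the median ratio of 0.384% and the dotted line is 10 times that ratio. Of members with at least 10 counts, Map3k12 and Mapk11 stand clearly above the dotted line and Mapk8 just barely. The member at a mean of 1 is Mapk10, with 3 counts in all, which also lies above it.

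No member was called after adjustment. With edgeR's quasi-likelihood test, adjusted after Benjamini and Hochberg over all 2438 tested genes, 0 of 19 members were lower, where 2.5% of all tested genes were, and 0 were higher, where 1.19% were. The lowest adjusted p of a member was 0.299. By the study's criterion, a change of 2-fold or more whose p (read as unadjusted) does not exceed 0.05, 0 of 19 members were lower against 6.97% of all tested genes, and 0 were higher against 4.63%. With the unadjusted p alone, 1 member was lower, Mapk3, against 8.2% of all tested genes, and 1 was higher, Etv1, against 6.52%. DESeq2 called 0 members after adjustment and gave none an unadjusted p of 0.05 or less, its lowest being 0.134. Both clones lay below both controls for 4 of 19 members against 21.4% of all tested genes, and above both for 3 of 19 against 21.6%. For 19 genes these counts, 21.1% and 15.8%, lie near the shares of all genes. The fitted change was above 0 for 12 of 19 members against 49.5% of all tested genes, and its median was 0.21 for the members and -0.0059 for all tested genes on the log2 scale. In these bulk libraries, fewer cells expressing a gene and less of its RNA per cell cannot be told apart.

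**Figure D2:**
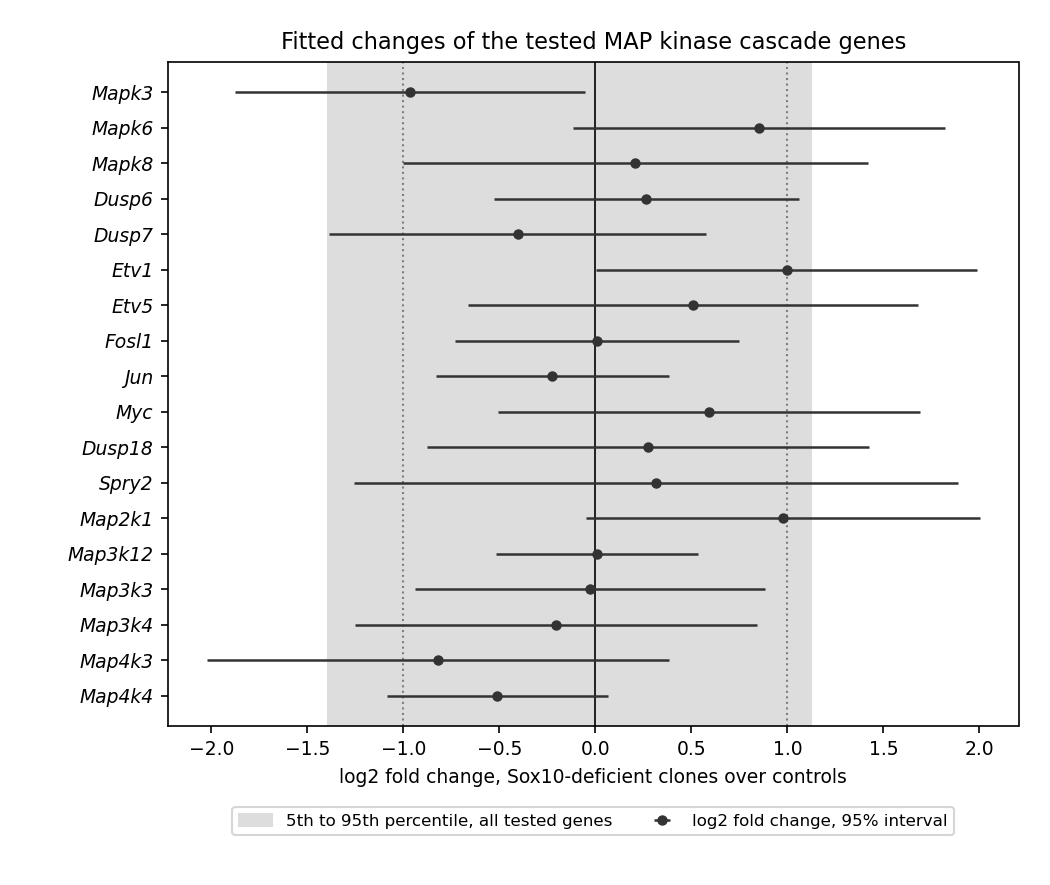
Fitted log2 fold change of the clones over the controls (x) with its 95% interval (bars) for 18 of the 19 tested members, in the order of their roles. The grey band spans the 5th to the 95th percentile of all tested genes, from -1.39 to 1.12, dotted lines mark 2-fold, and only the intervals of Mapk3 and Etv1 leave out 0, before any adjustment.

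Summed by class, the 14 Map3k genes had 2078 and 2811 CPM in the controls against 2451 and 2401 CPM in clones A and B. Without Map3k12 these sums were 623, 921, 825 and 634 CPM, and the groups overlapped. The 5 Map4k genes summed to 1263 and 1066 CPM in the controls and to 790 and 838 CPM in the clones, the one class of 9 in which both clones lay below both controls. That order also held without Map4k4, at 400 and 233 CPM against 221 and 215 CPM. In 5 classes both clones lay above both controls, and in the other 3 the groups overlapped. Of single tested genes, 21.6% lay above in this way and 21.4% below, and no such share was formed for sums of genes. Each of those 5 classes rested on a single member or pair. For the output genes, the sums were 1439 and 1541 CPM against 1847 and 1767 CPM, and without Etv1 the groups overlapped. For the JNK and p38 kinases, they were 224 and 339 CPM against 441 and 442 CPM, and without Mapk8 and Mapk11 the groups overlapped. The atypical phosphatases overlapped without Dusp18 and the Sprouty and Spred genes without Spry4, and the Map2k class without Map2k1 lay lower in both clones.

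**Figure D3:**
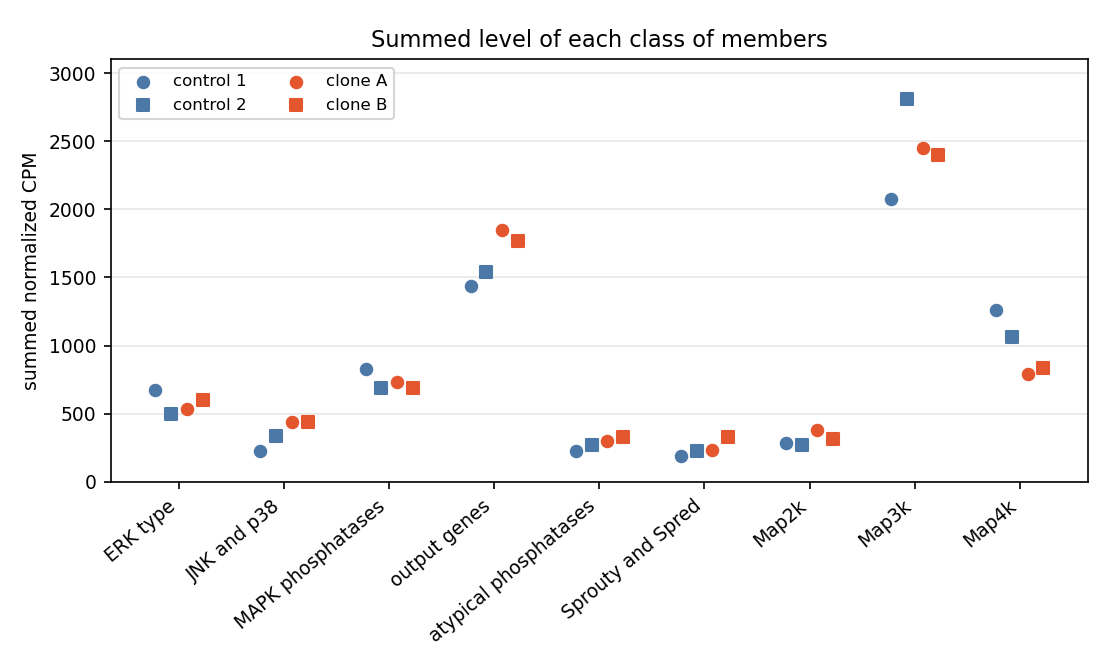
Summed normalized CPM of the members of each class (y, from 0) in each library, with controls in blue, clones in orange, and circles and squares for the first and second library of a group. The Map4k class is the one in which both clones lie below both controls, and Map3k12 makes up much of the Map3k sum.

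Among the ERK-type kinases, Mapk3, which encodes ERK1, had control counts of 23 and 26 and clone counts of 15 and 12. Both clones lay below both controls, with 310 ± 81.8 CPM in the controls and 155 ± 27.1 CPM in the clones (SD, n = 2 each). The log2 fold change was -0.97 (SE 0.43, 95% interval -1.88 to -0.06), with an unadjusted p of 0.0387 and an adjusted p of 0.299 from edgeR's quasi-likelihood test. Mapk6, which encodes the atypical kinase ERK3, had control counts of 8 and 14 and clone counts of 18 and 24. Both clones lay above both controls, with 132 ± 5.53 CPM against 240 ± 44.3 CPM (SD, n = 2 each). The fitted log2 fold change of 0.85 (95% interval -0.12 to 1.82) did not pass the test. Mapk4, Mapk7 and Mapk15 had no count in any library.

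**Figure D4:**
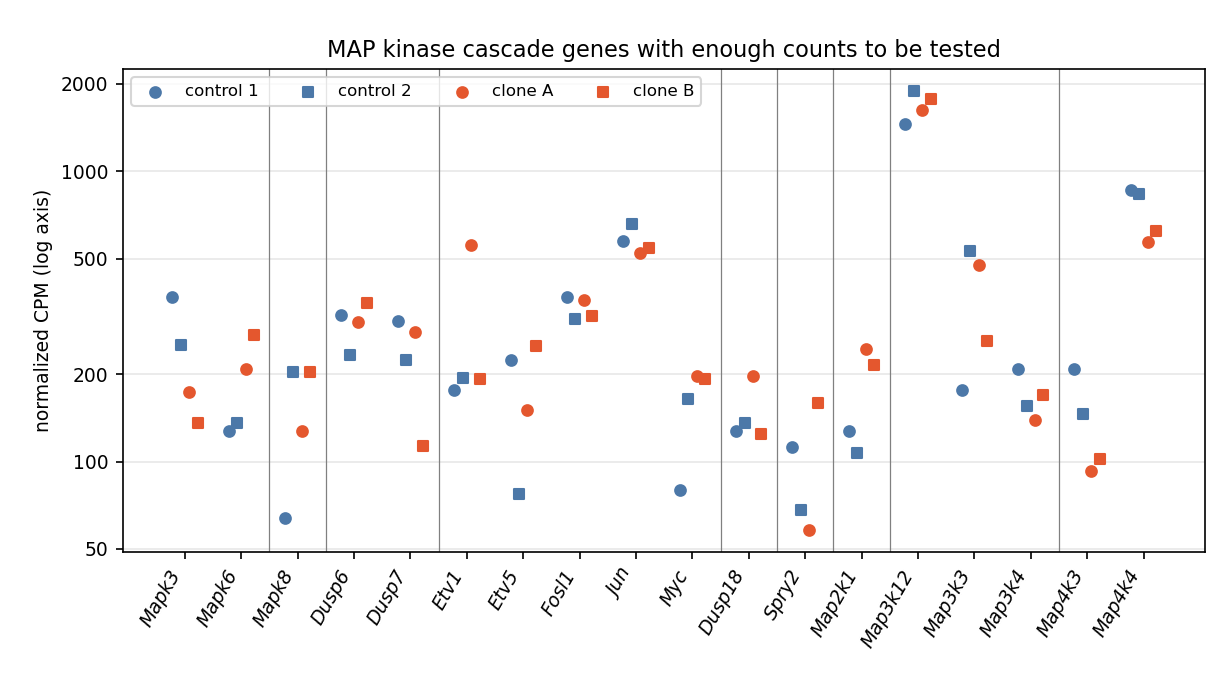
Normalized CPM (y, log axis) of 18 of the 19 tested members in each library, with controls in blue, clones in orange, and circles and squares for the first and second library of a group. Vertical lines separate the classes, and the groups stand apart for Mapk3, Map4k3, Map4k4 and Jun, which lie lower in the clones, and for Mapk6, Map2k1 and Myc, which lie higher.

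Of the stress-activated kinases, Mapk8, which encodes JNK1, was the one that could be tested. It had control counts of 4 and 21 and clone counts of 11 and 18, so that in counts the controls spanned both clones, with a log2 fold change of 0.21 (95% interval -1.004 to 1.42) that was -0.32 without control 1, 1.33 without control 2 and -0.15 without clone B. The sister gene Mapk9, which encodes JNK2, had 3 counts in each control and 7 in each clone. The ratio of its pooled counts, scaled to depth, was 2.22 with a 95% interval of 0.800 to 7.04, and a difference could not be detected at this depth. Mapk10, the JNK gene known for its neuronal expression, had 3 counts in control 1 and none elsewhere. Among the p38 genes, Mapk14, which encodes p38 alpha, had 3, 2, 3 and 2 counts in control 1, control 2, clone A and clone B. Mapk12, which encodes p38 gamma, had 1, 7, 7 and 3 counts in the same order, and Mapk13 had none. Mapk11, which encodes p38 beta, had control counts of 0 and 2 and clone counts of 10 and 9, 9.03 times as many in the clones (95% interval 2.18 to 79.9). This was among the widest separations of the whole set, but the gene is the one with 41.4 times the median ratio to the authors' mean of 33, and whether its counts are its own transcripts was not tested. Without the filter, edgeR gave Mapk11 an unadjusted p of 0.00386 and an adjusted p of 0.184.

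The MAP2 kinases were represented by Map2k1, which encodes MEK1, a direct activator of ERK. It had control counts of 8 and 11 and clone counts of 21 and 19. The groups did not overlap, at 117 ± 15.03 CPM against 230 ± 20.3 CPM (SD, n = 2 each), but the log2 fold change of 0.98 (95% interval -0.05 to 2.00) did not pass the test (adjusted p = 0.373 by edgeR). The second ERK activator, Map2k2 or MEK2, had control counts of 6 and 9 and clone counts of 7 and 4, a pooled ratio of 0.697 (95% interval 0.290 to 1.62). Map2k5, the kinase upstream of ERK5, had 2, 1, 2 and 4 counts in control 1, control 2, clone A and clone B. The JNK activators Map2k4 and Map2k7 had 0, 1, 0 and 1 counts and 2, 2, 1 and 0 counts in this order. The p38 activator Map2k6 had 0, 4, 2 and 0 counts, and Map2k3 had none.

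Among the MAP3 kinases, Map3k12, Map3k3 and Map3k4 could be tested, and none differed beyond its error. Map3k12, which encodes the axon injury kinase DLK, had control counts of 91 and 195 and clone counts of 140 and 156, a log2 fold change of 0.0074 (95% interval -0.52 to 0.53) in counts that stand 49.0 times above the median ratio. Map3k3, or MEKK3, had control counts of 11 and 55 and clone counts of 41 and 23, and the controls spanned both clones. Its log2 fold change was -0.030 with all libraries and -0.56 without control 1, 1.025 without control 2, -0.51 without clone A and 0.35 without clone B, and it was 0.022 with DESeq2 and 0.016 with the replicate number as a block, so that the data give it no direction. Map3k4, or MEKK4, had 13, 16, 12 and 15 counts in control 1, control 2, clone A and clone B, with a log2 fold change of -0.20 (95% interval -1.25 to 0.84). Map3k1, the member that the study lists among candidate Sox10 target genes, had 2 counts in control 2 and none elsewhere, so that both groups lay under the limit of 3 counts and no fold was formed. Map3k11, which encodes MLK3, had control counts of 5 and 8 and clone counts of 3 and 4, a pooled ratio of 0.512 (95% interval 0.173 to 1.38). Map3k14, the kinase of the noncanonical NF-kappaB pathway, had 5, 6, 1 and 5 counts. Map3k2 had 2, 1, 7 and 2 counts, Map3k6 had 2, 1, 3 and 4, Map3k9 had 1, 5, 2 and 0, and Map3k10 had 0, 1, 2 and 3. The counting intervals of these last genes all held a ratio of 1. Map3k5, Map3k7, Map3k8 and Map3k13 had no count.

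In the Map4k class, both tested genes lay lower in both clones without passing the test. Map4k4, a kinase known for its part in cell migration, had control counts of 54 and 86 and clone counts of 49 and 55. Scaled to depth, these were 848 ± 20.9 CPM against 596 ± 37.96 CPM (SD, n = 2 each), where an SD of 2 libraries says little about the spread. The log2 fold change was -0.51 (SE 0.27, 95% interval -1.085 to 0.064), with an unadjusted p of 0.0782 and an adjusted p of 0.425 from edgeR. Map4k3, which is known for its part in amino acid sensing, had control counts of 13 and 15 and clone counts of 8 and 9, with a log2 fold change of -0.82 (95% interval -2.025 to 0.38). Map4k5 had control counts of 9 and 5 and clone counts of 6 and 5, and Map4k2 had 3 and 4 counts against 5 in each clone. Map4k1, a gene of blood cells, had none.

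The MAP kinase phosphatases that could be tested were Dusp6 and Dusp7, both cytoplasmic and selective for ERK. Dusp6, a widely used readout of ERK activity, had control counts of 20 and 24 and clone counts of 26 and 31. Its groups overlapped in CPM, at 276 ± 61.6 CPM against 327 ± 34.7 CPM (SD, n = 2 each), and the fitted log2 fold change was 0.27 (95% interval -0.53 to 1.06). The interval leaves out a 2-fold decrease but not a 2-fold increase. Dusp7 had control counts of 19 and 23 and clone counts of 24 and 10, with a log2 fold change of -0.41 (95% interval -1.39 to 0.58). The clones stood farther apart than the controls, and without clone B the log2 fold change was 0.10. The nuclear phosphatase Dusp4 had control counts of 5 and 12 and clone counts of 5 and 4, a pooled ratio of 0.503 (95% interval 0.198 to 1.19). Dusp1, the immediate early phosphatase that favours p38 and JNK, had no count in the controls and 3 and 5 counts in the clones. Dusp1 was 2.53-fold higher against 3 counts over the control group, a value that leaves out the error of the clone counts. Without the filter, edgeR gave Dusp1 an unadjusted p of 0.02445 and an adjusted p of 0.508. Its deposited counts stood 3.59 times above the median ratio. Dusp5, another nuclear phosphatase induced by ERK, had 0, 2, 1 and 3 counts in control 1, control 2, clone A and clone B. The JNK and p38 phosphatases Dusp10 and Dusp16 had 4, 6, 3 and 3 counts and 4, 4, 1 and 3 counts, and the intervals of their pooled ratios, 0.170 to 1.73 and 0.105 to 1.77, held 1. Dusp8 had 2 counts in clone B, and Dusp2 and Dusp9 had none.

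Of the atypical dual-specificity phosphatases, which lack the domain that docks onto MAP kinases, Dusp18 could be tested. It had control counts of 8 and 14 and clone counts of 17 and 11, and its groups overlapped, with a log2 fold change of 0.27 (95% interval -0.88 to 1.42), or -0.076 without clone A. Dusp3 had 5, 7, 6 and 8 counts in control 1, control 2, clone A and clone B, nearly even when pooled. Dusp12 had 1 count in each control and 3 and 8 counts in the clones, a pooled ratio of 5.23 (95% interval 1.14 to 48.5). Without the filter, edgeR gave Dusp12 an unadjusted p of 0.0793 and an adjusted p of 0.792. Its counts stood 3.21 times above the median ratio. Dusp14 had 6 counts in control 2 and none elsewhere. Its value of 2.10-fold lower, against 3 counts over the clone group, left out the error of the 6 counts and rested on that library. Dusp15 and Dusp19 had 1 count each, in clone B. Dusp11, Dusp13, Dusp21, Dusp22, Dusp23, Dusp26 and Dusp27 had none.

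The Sprouty genes, whose products restrain receptor tyrosine kinase signalling to ERK, were low in counts. Spry2 was the one that could be tested, with 7 counts in each control and 5 and 14 counts in clones A and B. The controls lay between the clones in counts, and the log2 fold change was 0.32 (SE 0.75, 95% interval -1.26 to 1.89), or -0.069 without control 2. Spry4 had 1 count in each control and 13 and 8 counts in the clones, 9.98 times as many when pooled and scaled to depth (95% interval 2.44 to 87.8). When genes were not filtered, edgeR gave Spry4 an unadjusted p of 0.00208 and an adjusted p of 0.120. The counts of Spry4 stood 1.61 times above the median ratio. Like several other members, it adjoins a gene on the opposite strand in GRCr8, Arhgap26, and whether its counts hold reads of that neighbour was not tested. Spry1 had its counts in the controls, 2 and 6, and none in either clone. Spry1 was 2.81-fold lower against 3 counts over the clone group, a value that leaves out the error of the control counts. Without the filter its unadjusted p was 0.0231 and its adjusted p 0.508 by edgeR. Spry3 had no count. The related Spred genes, whose products bind Ras and the neurofibromin protein, had few counts. Spred1 had 2, 3, 1 and 0 counts in control 1, control 2, clone A and clone B, Spred2 had 0, 1, 1 and 4, and Spred3 had 0, 5, 0 and 3, and a difference could not be detected at this depth.

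**Figure D5:**
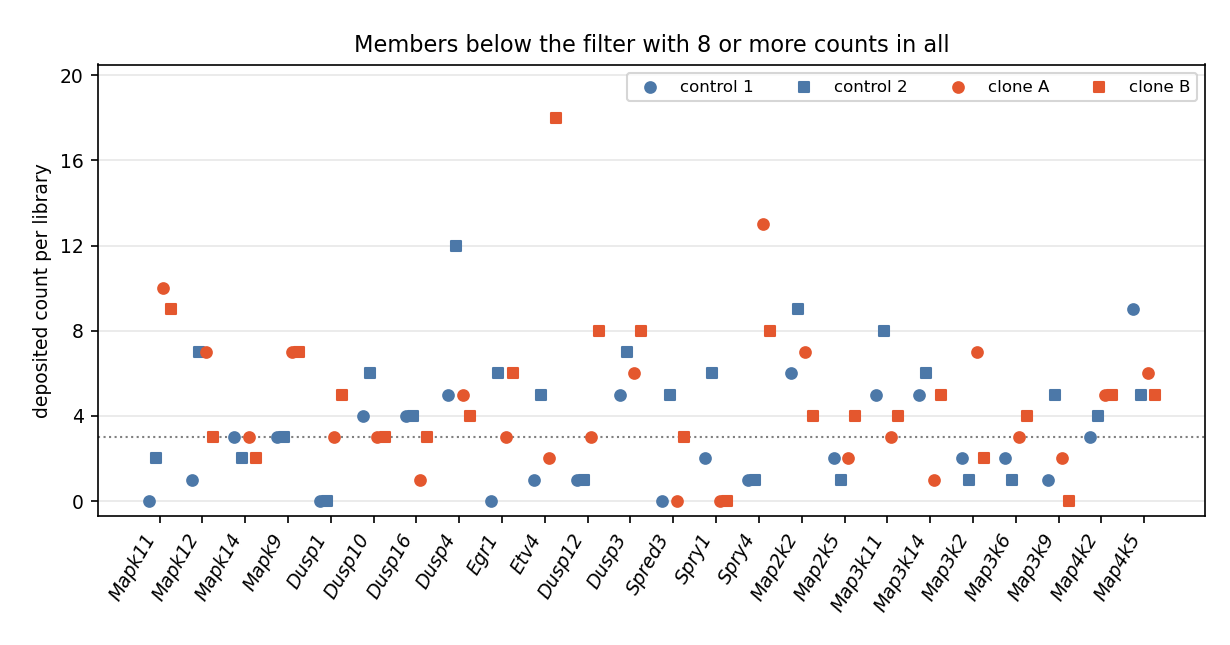
Deposited counts per library (y) of the 24 members below the filter that had 8 or more counts in all, in the order of their roles, with controls in blue, clones in orange, and circles and squares for the first and second library of a group. The dotted line marks 3 counts, and Mapk11 and Spry4 stand higher in both clones while Spry1 is at 0 in both.

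Of the 8 output genes of the cascades, 5 could be tested. Etv1, a PEA3-type ETS factor whose RNA is known to depend on ERK signalling, had control counts of 11 and 20, with 48 counts for clone A and 17 for clone B. Clone A alone was high, since clone B had 192 CPM where the controls had 176 and 194 CPM and clone A had 558 CPM. The log2 fold change of 1.00 (SE 0.47, 95% interval 0.0039 to 1.99) had an unadjusted p of 0.0492 and an adjusted p of 0.334 from edgeR's quasi-likelihood test. Without clone A it was 0.058 and without clone B it was 1.57. Etv5, of the same family, had control counts of 14 and 8 and clone counts of 13 and 22, with a log2 fold change of 0.51 (SE 0.56, adjusted p = 0.773 by edgeR). Its controls, at 224 and 77.5 CPM, lay on both sides of clone A at 151 CPM, and clone B was highest at 249 CPM. Without control 1 the log2 fold change was 1.33, and without control 2 it was -0.19. Etv4, the third gene of the family, had control counts of 1 and 5, with 2 counts for clone A and 18 for clone B, a pooled ratio of 3.17 (95% interval 1.23 to 9.64) that clone B set. Without the filter, edgeR gave Etv4 an unadjusted p of 0.0479 and an adjusted p of 0.702. The clone with the higher level was thus clone A for Etv1 and clone B for Etv4 and Etv5.

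Both tested AP-1 genes had intervals within 2-fold. Fosl1, which encodes the AP-1 subunit Fra-1 and follows sustained ERK signalling, had control counts of 23 and 32 and clone counts of 31 and 28. Its levels of 339 ± 40.6 CPM and 339 ± 30.4 CPM (SD, n = 2 each) gave a log2 fold change of 0.0077 (SE 0.35, adjusted p = 0.999 by edgeR), and the 95% interval of -0.73 to 0.75 leaves out a 2-fold change in both directions. Jun, the AP-1 partner that JNK phosphorylates, had control counts of 36 and 68 and clone counts of 45 and 48. Both clones lay below both controls in CPM, at 617 ± 59.2 against 533 ± 14.8 (SD, n = 2 each), and the fitted log2 fold change was -0.22 (SE 0.29, adjusted p = 0.823 by edgeR) and a 95% interval of -0.83 to 0.38 that also leaves out 2-fold. Myc, a growth regulator that ERK is known to stabilize, had control counts of 5 and 17 and 17 in each clone. Both clones lay above both controls in CPM, but control 2, at 165 CPM, was nearer to the clones, at 198 and 193 CPM, than to control 1 at 79.9 CPM. Its log2 fold change was 0.59 (SE 0.52, adjusted p = 0.704 by edgeR), and it was 0.22 without control 1 and 1.24 without control 2. The immediate early genes were sparse. Fos had 3 counts in control 2 and none elsewhere, and Egr1 had 0, 6, 3 and 6 counts in control 1, control 2, clone A and clone B, with a pooled ratio of 1.43 (95% interval 0.453 to 4.87).

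A count of 0 says little here. Of the 20 members without a count, 18 are listed in the authors' table, 10 of them at a mean of 0. The highest mean among these 20 genes was 75, for Map3k13, which at the median ratio corresponds to 0.288 counts per library. Of the 3 genes listed only in that table, Map3k19 had a mean of 12, and Map3k15 and Dusp28 are listed at 0. The median total over the 4 libraries was 9 counts for all 77 members and 64 counts for the 19 that were tested.

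Around the members, a list of 143 other genes of these pathways, from receptors and Ras to nuclear targets, was examined in the same fit. Of these, 135 are in the counts, 35 could be tested, 1 was higher after adjustment and 0 were lower, against 1.19% and 2.5% of all tested genes by edgeR. With an unadjusted p of 0.05 or less, 3 were higher and 2 were lower, against 6.52% and 8.2%. The 2 lower were Taok1 (log2 fold change -0.90, adjusted p = 0.316 by edgeR) and Ctgf (log2 fold change -0.77, adjusted p = 0.303 by edgeR). The gene called was Rasa1, the Ras GTPase-activating protein that returns Ras to its inactive form. It had control counts of 5 and 9 and clone counts of 28 and 29. Both clones stood above both controls, at 83.6 ± 5.17 CPM in the controls and 327 ± 2.25 CPM in the clones (SD, n = 2 each). An SD this small from 2 libraries says little about the spread. The log2 fold change was 1.93 (SE 0.46, adjusted p = 0.0240 by edgeR). The call was lost with DESeq2 (adjusted p = 0.263), with the replicate number as a block (0.0964), and without control 2, clone A or clone B (0.497, 0.115 and 0.142), while the log2 fold change stayed between 1.87 and 1.98. By the unadjusted criterion of at least 2-fold, 3 of the 35 genes were higher and 0 were lower, against 4.63% and 6.97%. The other two were Shc1, an adaptor between receptors and Ras, with 9 counts in each control and 24 and 38 in the clones (log2 fold change 1.66, SE 0.46, adjusted p = 0.0549 by edgeR), and Mef2a, a transcription factor that p38 phosphorylates, with 4 and 7 counts against 12 and 21 (log2 fold change 1.49, SE 0.62, adjusted p = 0.243 by edgeR). Among 11 tested adaptor and Ras genes, 1 was higher after adjustment, and 0 of 11 Raf kinases and scaffolds, 0 of 2 MAP kinase-activated kinases, 0 of 2 other phosphatases and inhibitors and 0 of 9 transcription factors and early response genes were called. Over the 35 genes, the fitted change had a median of 0.14 on the log2 scale. Fgfr3, Tnik, Shc4 and Ets1, which the study names among candidate Sox10 target genes, had too few counts for a test. In control 1, control 2, clone A and clone B, Fgfr3 had 5, 17, 0 and 2 counts and Tnik had 4, 10, 0 and 0. In this order, Shc4 had 3, 16, 0 and 5 counts and Ets1 had 4, 18, 7 and 4.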

How the data were processed

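For each of the 4 libraries, the authors deposited raw counts of uniquely mapped reads per gene symbol, made per the labels and the study's methods with STAR 2.5.1 and HTSeq on rat genome rn5. The authors also deposited a table of a DESeq2 comparison. Of it, only the mean normalized count over all libraries, rounded to whole numbers and treated as a score, was used here and is given as the authors' mean. Its fold changes, standard errors, Wald statistics and p-values were not used.

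The test of the deposited counts was glmQLFTest of edgeR 4.0.16 under R 4.3.3, after filterByExpr at its defaults, TMM and glmQLFit with condition as the sole term, on 2438 genes, with Benjamini-Hochberg adjustment over all of them. Standard errors were derived from the F statistic and 95% intervals from its degrees of freedom. CPM are counts per deposited library total times the TMM factor. Pooled ratios carry exact binomial intervals. These leave out the spread between libraries. Chi-square per degree of freedom was 2.086 between the controls and 2.017 between the clones, larger than counting error alone gives. The fit was tested on simulated data first. Neighbours and strands came from RefSeq tables of GRCr8, so that no positions are given. DESeq2 1.42.0, other scalings, other filters, the replicate number as a term and leaving out each library served as alternatives.

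Members and lists were chosen with earlier results of these data known. Full statistics are given for members that were called or passed an unadjusted p with 2-fold, and for tested output genes. Of the 19 tested members 18 are named and 1 is not reported here. Untested members with 10 or more counts are named too. Members with fewer counts, pooled ratios and the tests of single members without the filter were described after their values were seen. So were Shc1, Mef2a, Taok1, Ctgf, Fgfr3, Tnik, Shc4 and Ets1, and the tests of Mapk3, Map2k1 and Map4k4.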

Additional observations from a re-analysis of the deposited data

How the results depend on the processing

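The absence of a call after adjustment held in every setting tried, with 0 members lower and 0 higher in the 7 fits of all libraries and in the 4 that left out 1 library, and the lowest adjusted p of a member in any of them was 0.0634, for Etv1 without clone B. By the unadjusted 2-fold criterion, no filter gave 1 lower member, Spry1, and 5 higher, Dusp1, Etv1, Etv4, Mapk11 and Spry4, out of 57 tested, against 3.28% and 2.94% of the 10024 genes of that fit, and leaving out 1 library gave 0 to 1 lower (Mapk3 without control 2) and always 1 higher, a different gene each time (Etv5, Mapk11, Etv4 and Etv1). The median fitted change of the members, on the log2 scale, was 0.15 without a filter, -0.036 for the 11 members with at least 10 counts in every library, 0.14 without genes at 10 times or more the median ratio of counts to mean (an alternative chosen after seeing the data) and 0.00011 to 0.22 when 1 library was left out, so that its sign was not the same throughout. The cause was not tested.

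The replicate number paired the libraries by name only. The deviations of like-numbered libraries had a correlation of 0.12 across genes, and with the number as a block 0 members were called, the median log2 fold change of the members was 0.23, and over all tested genes 28 rather than 61 were lower and 14 rather than 29 higher. DESeq2 gave 28 and 9, a minimum of 10 counts per library gave 8 and 9, no filter gave 71 and 47, the fit without those genes gave 44 and 19, and the fits that left out 1 library gave 0 to 70 and 0 to 39, with 0 and 0 without control 2.

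The direction of several members was not stable. Fosl1 was at -0.016 with library totals alone and at -0.0025 with the block, Map3k12 at -0.015 with library totals alone, and Map3k3 at 0.022 with DESeq2 and 0.016 with the block. When 1 library was left out, the log2 fold changes ran from -0.076 to 0.57 for Dusp18, -1.17 to 0.10 for Dusp7, -0.19 to 1.33 for Etv5, -0.15 to 0.10 for Fosl1, -0.18 to 0.19 for Map3k12, -0.56 to 1.025 for Map3k3, -0.32 to 1.33 for Mapk8 and -0.069 to 0.87 for Spry2, which the filter removed without clone B. There were 2 libraries a group and at most 104017 deposited counts in a library. At that size, the 95% intervals of most members reached 2-fold in at least 1 direction.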
